A study of Mus musculus with 6 samples.

Results

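Chemokines and their receptors were examined in RNA-seq of mouse sciatic nerve at postnatal day 4 (P4). The members are the genes whose symbol carries the systematic name of a chemokine ligand (Ccl, Cxcl, Xcl or Cx3cl and a number), of a signaling receptor (Ccr, Cxcr, Xcr or Cx3cr) or of an atypical receptor (Ackr). This naming rule found 60 genes among the 59485 genes of the deposited table. They are 38 ligands, 18 signaling receptors and 4 atypical receptors, and 1 of the ligand entries holds the symbols *Ccl21b* and *Ccl21c* together.

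There were 3 mutant and 3 control libraries, each from the nerves of a separate animal. The mutants are labelled Ht-PA-Cre; Adar1fl/fl;R26R. There, a Cre driven by the promoter of human tissue plasminogen (HtPA) deletes the floxed segment of *Adar*, which encodes the RNA editing enzyme ADAR1, in neural crest (NC) cells, and R26R labels those cells with YFP. The controls are labelled wild-type. The study's methods describe its wild-type animals as progeny without Cre that still carry floxed *Adar1* (fl/fl or fl/+) and R26R, so the floxed allele and the tracer were present on both sides of the comparison. The whole nerve was used. It holds Schwann cells (SCs), which are NC derivatives, beside axons, fibroblasts, vessels and resident macrophages, and the cells were not sorted.

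Each value is a read number divided by the size factor of its library, with no correction for gene length, so levels are compared between libraries and not between genes. In bulk tissue, a change in the number of cells of a type cannot be told apart from a change in RNA per cell. *Adar* itself (chr3:89715022-89753454) was at 1602, 2066 and 1133 in the control libraries and at 11768, 9311 and 9773 in the mutant libraries. All 3 mutant libraries were higher, by 2.72 ± 0.20 on the log2 scale (standard error here and below, n = 3 per group, limma adjusted p = 4.1e-05). The deleted segment cannot be read apart from the rest of the gene in a table with 1 value per gene. Because the direction of *Adar* goes against the deletion, the groups are called mutant-labelled and control-labelled below.

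All 8 SC markers, the defining cells of this tissue, were detected in every library, and 4 of them were lower in the mutant-labelled libraries, among them *S100b* at a log2 fold change of -3.07, beside 10.4% lower among all 25802 genes tested by the threshold given below. Reads on genes numbered 50938349 to 78250094 per library, and 1 read was worth 0.727 to 1.27 on the value scale. Skeletal muscle markers also differed with the label. Their summed value was 5583 to 28977 in control-labelled libraries and 35865 to 274480 in mutant-labelled libraries, with 5 of the 6 markers higher, beside 13.9% of all genes tested, and the part of this difference in the chemokine results was not tested.

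Chemokines are small secreted proteins that guide leukocytes along concentration gradients and bind G protein-coupled receptors on the responding cell. They are grouped by the spacing of their first cysteines into CC, CXC, CX3C and XC chemokines. Some, such as *Cxcl12*, are made constantly and position cells during development, whereas most CC ligands and the CXCR2 and CXCR3 ligands are inducible by inflammatory signals, including interferons (IFN) and NF-kB. In peripheral nerve, SCs, fibroblasts and macrophages are known chemokine sources after injury. Atypical receptors bind chemokines without classical G protein signaling and mostly scavenge or transport them.

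Most ligands that could be tested were higher in the mutant-labelled libraries, whereas the receptors were mixed. A gene was past the threshold when limma gave an unadjusted p of at most 0.05 and a change of at least 2-fold on the log2(value + 1) scale, and genes were tested when their mean value reached 10 in at least 1 genotype. Of the 38 ligands, 24 were higher and 1 was lower in the mutant-labelled libraries, 8 were tested and did not pass, and 5 were below the filter. Among the 25802 genes tested in all, 13.9% were higher and 10.4% were lower by the same threshold, 24.2% in either direction. Of the 22 receptors, 3 were higher, 2 were lower, 9 did not pass and 8 were below the filter. Values of the control-labelled and mutant-labelled libraries did not overlap for 28 of the 33 ligands tested, 25 of them higher and 3 lower, and for 7 of the 14 receptors tested, against 49.2% of all genes tested. The receptors' share is close to that of all genes.

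The filter contributed to these counts. Of the 33 ligands tested, 11 passed it only through the mutant-labelled libraries, so their means had to be higher there. Of these 11, 10 were among the 24 higher ones. The 11 are *Cxcl2*, *Cxcl3*, *Cxcl5*, *Cxcl13*, *Ccl1*, *Ccl3*, *Ccl4*, *Ccl8*, *Ccl19*, *Ccl20* and *Xcl1*, and the receptors *Ccr3* and *Cxcr6* also passed only that way. *Ccl24*, *Ccl22* and *Cxcr5* passed only through the control-labelled libraries. Among the 22 ligands with a mean of at least 10 in the control-labelled libraries, 14 were higher, against 10.1% of all genes with such a mean. Among the 12 receptors with such a mean, 1 was higher. The median log2 fold change was 2.93 over the 33 ligands tested, 1.71 over the 22 ligands with a control mean of at least 10, and 0.03 over all genes tested. It was 0.50 over the 14 receptors tested. Setting *Xcl1*, *Ccl19* and *Ccr3*, which had no control read, to their lower bounds left the medians of 2.93 and 0.50 as they were.

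**Figure D1:**
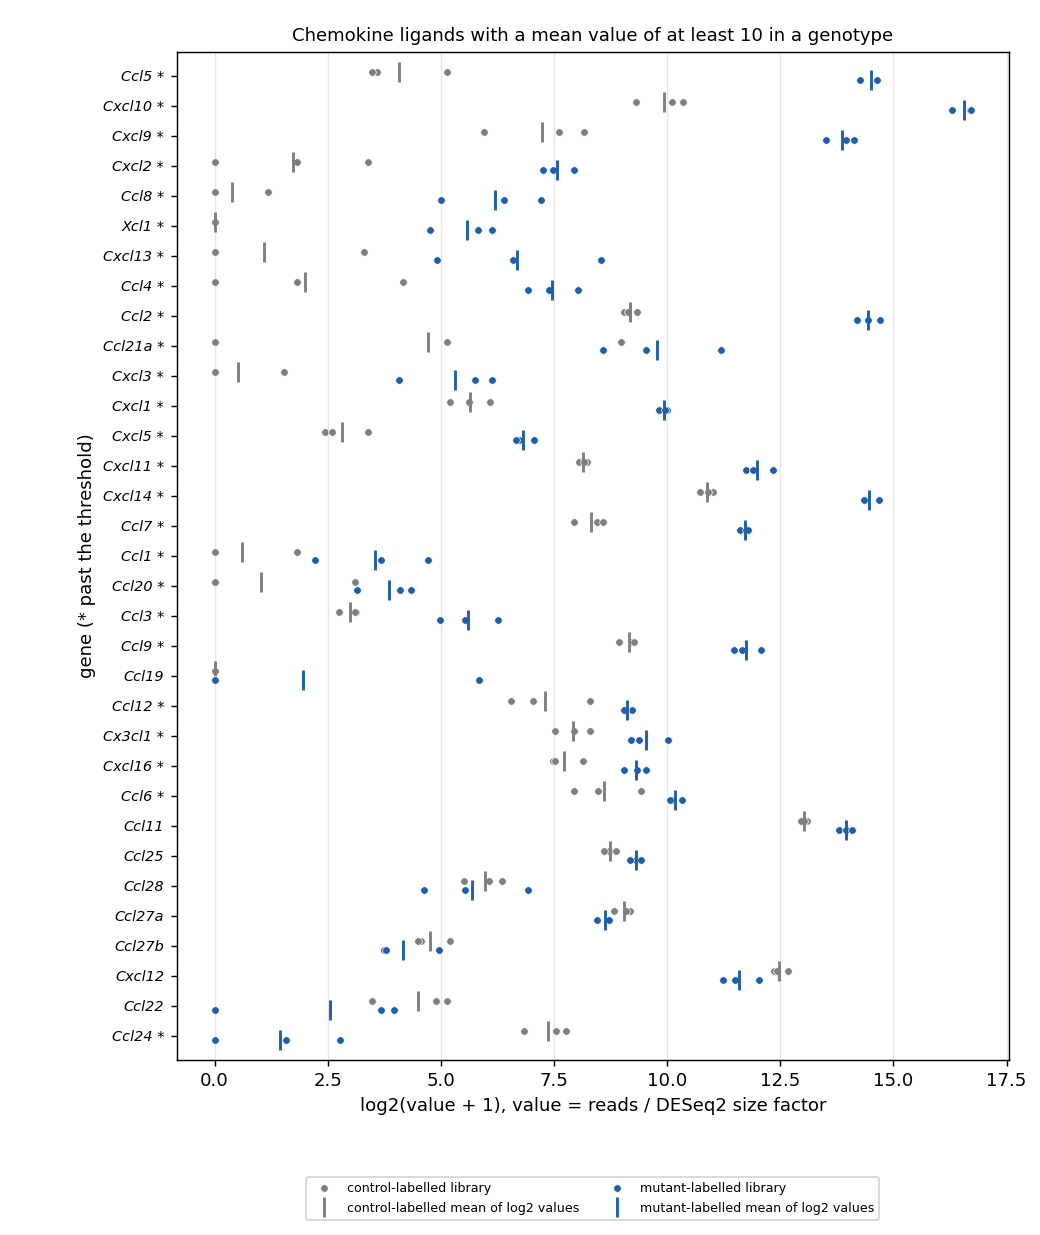
The 33 chemokine ligands tested, one row per gene, in order of their log2 fold change. The horizontal axis is log2(value + 1), each point is a library (grey for control-labelled, blue for mutant-labelled), vertical ticks are the means of the 3 log2 values, and an asterisk marks the 25 ligands past the threshold. The 24 marked ligands from *Ccl5* to *Ccl6* sit further right in the mutant-labelled libraries, with points of *Ccl21a* overlapping, and *Ccl24* sits further left.

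Beside the values, the promoters of members that the results turn on are shown. They are the 250 bases before the transcription start in the RefSeq promoter table (build GRCm38.p6, mouse chromosomes as in the mm10 positions of the deposited table). *Cxcl10* and *Cxcl9* had the largest fitted fold changes with no overlap after *Ccl5* at the pseudocount of 1. At 0.1, *Xcl1* and *Ccl8*, with 0 and 1 control-labelled reads, stood above them (8.87 and 8.24 against 6.64 and 6.63 on the log2 scale). So did *Cxcl13*, *Cxcl3*, *Cxcl2* and *Ccl4*, at 7.81, 7.16, 7.11 and 6.72. *Cx3cl1* is the only CX3C ligand. The promoter table has no entry for *Ccl5*. Sequences run 5′ to 3′ on the strand of the gene. Capitals mark matches, on either strand, to an IFN-stimulated response element (ISRE), here GAAA repeated with any pair of bases between the repeats, and to the NF-kB (kB) consensus.
*Cxcl10* (chr5:92348890-92349139, minus strand): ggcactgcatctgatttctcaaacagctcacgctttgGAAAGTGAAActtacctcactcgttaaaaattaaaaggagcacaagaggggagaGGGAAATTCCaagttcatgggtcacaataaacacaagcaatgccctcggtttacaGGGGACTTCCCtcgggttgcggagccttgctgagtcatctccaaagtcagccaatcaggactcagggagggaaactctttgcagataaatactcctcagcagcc
*Cxcl9* (chr5:92328080-92328329, minus strand): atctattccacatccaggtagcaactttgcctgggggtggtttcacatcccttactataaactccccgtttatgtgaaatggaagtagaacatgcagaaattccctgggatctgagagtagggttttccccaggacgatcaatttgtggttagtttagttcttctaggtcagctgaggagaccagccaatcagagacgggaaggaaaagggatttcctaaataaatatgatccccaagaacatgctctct
*Cx3cl1* (chr8:94771930-94772179, plus strand): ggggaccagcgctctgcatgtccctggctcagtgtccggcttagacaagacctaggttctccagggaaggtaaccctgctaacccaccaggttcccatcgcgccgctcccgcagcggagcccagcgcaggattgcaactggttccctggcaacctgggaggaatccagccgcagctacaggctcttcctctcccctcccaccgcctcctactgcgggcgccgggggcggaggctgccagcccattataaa

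The *Cxcl10* promoter held an ISRE match that starts at -213 from the transcription start, kB matches at -159 and at -104, and a further kB match at -103 that overlaps the last. The *Cxcl9* and *Cx3cl1* windows held neither motif in these letters. A match is a description of the sequence and not a measured binding site.

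The CXCR3 ligands *Cxcl9*, *Cxcl10* and *Cxcl11* attract activated T cells and natural killer (NK) cells and are classical IFN-induced genes. *Cxcl10* (GSMG0030738, chromosome 5, 92346641 to 92348890) had values of 635, 1312 and 1094 in the control-labelled libraries and 105897, 79959 and 107483 in the mutant-labelled libraries. The lowest mutant-labelled value was thus far above the highest control-labelled one, and the log2 fold change was 6.64 ± 0.25 (adjusted p = 2.3e-06). *Cxcl9* (GSMG0030737, chromosome 5, 92321331 to 92328117) went from 195, 283 and 60.8 to 17975, 11591 and 15778. The groups did not overlap, at a log2 fold change of 6.62 ± 0.49 (adjusted p = 3.6e-05), or 5.98 without control-labelled replicate 3. *Cxcl11* (GSMG0030739, chromosome 5, 92359544 to 92365486) went from 299, 266 and 284 to 3423, 5159 and 3838, a smaller difference of 3.85 ± 0.17 on the log2 scale (adjusted p = 3.4e-06). Their receptor *Cxcr3* did not pass the threshold. Its values of 22.2, 45.4 and 53.2 in control-labelled libraries overlapped with 40.7, 110 and 31.7 in mutant-labelled libraries (log2 fold change 0.46 ± 0.59).

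Markers of the cells that carry CXCR3 were read beside this axis. Of 7 NK cell markers, 7 were higher, but 6 of them reached the filter only in the mutant-labelled libraries, so their means had to be higher there. Among all genes tested 13.9% were higher. The summed NK cell value was 20.8 to 43.3 in control-labelled and 252 to 509 in mutant-labelled libraries, with *Ncr1*, *Eomes* and *Prf1* at 0 in all control-labelled libraries. Of 9 T cell markers, 7 were tested and 5 of these were higher, with 3 of the 7 tested only through the mutant-labelled libraries. The T cell sum was 172 to 279 in control-labelled and 835 to 1129 in mutant-labelled libraries, with *Cd3d*, *Cd8a* and *Cd8b1* at 0 in the control-labelled libraries. *Lck*, a lymphocyte kinase gene, went from 35.7 ± 12.2 to 526 ± 37.9 (SD, n = 3). At the pseudocount of 1 it had the largest log2 fold change of the list, 3.90 against 3.85 for *Cd8a*. Without *Lck* the T cell sum was 128 to 238 against 343 to 562. *Cd3e*, a subunit of the T cell receptor complex, had a log2 fold change of 0.40 ± 0.83 and did not pass. The part of these markers in the chemokine values was not tested.

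The CC ligands of the CCR1 group attract monocytes, macrophages and effector lymphocytes. *Ccl5* (GSMG0007119, chromosome 11, 83525781 to 83530519), also known as RANTES, had values of 11.1, 34.0 and 10.1 in control-labelled and 25406, 19508 and 25500 in mutant-labelled libraries. Its log2 fold change of 10.44 ± 0.40 (adjusted p = 2.4e-06) was the largest of the ligands. *Ccl4*, or MIP-1beta, went from 0, 17.01 and 2.53 to 121, 168 and 260, and *Ccl3*, or MIP-1alpha, went from 7.77, 5.67 and 7.60 to 30.6, 45.3 and 75.2. Neither gene overlapped between the groups, with log2 fold changes of 5.45 ± 0.98 and 2.60 ± 0.58 (adjusted p = 0.0033 and 0.0092). Without control-labelled replicate 1 or 2, the change of *Ccl4* was 4.46 or 6.54. Both genes reached the filter only in the mutant-labelled libraries.

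*Ccl9* and *Ccl6*, rodent CCR1 ligands with no direct human counterpart, were already well measured in the control-labelled libraries. *Ccl9* went from 599, 619 and 492 to 2854, 3234 and 4336 (log2 fold change 2.59 ± 0.17, adjusted p = 2.4e-05). *Ccl6* went from 354, 680 and 246 to 1279, 1100 and 1073 (1.55 ± 0.33 on the same scale, adjusted p = 0.0069). The control-labelled libraries of *Ccl6* spread widely but stayed below all mutant-labelled ones. Their receptor *Ccr1* did not pass the threshold. It had 733, 546 and 441 against 585, 815 and 467, overlapping values with a log2 fold change of 0.11 ± 0.25.

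The CCR2 ligands, or monocyte chemoattractant proteins, rose together while *Ccr2* did not pass. *Ccl2* (GSMG0005639, chromosome 11, 82035575 to 82037452) had 530, 643 and 560 in control-labelled and 22367, 18702 and 26652 in mutant-labelled libraries. All 3 mutant-labelled values were above all control-labelled ones, at a log2 fold change of 5.28 ± 0.14 (adjusted p = 8.4e-07). *Ccl7* went from 346, 382 and 243 to 3107, 3449 and 3522 (3.39 ± 0.18, adjusted p = 7.9e-06). *Ccl12* went from 93.3, 314 and 131 to 593, 537 and 528 (1.81 ± 0.40, adjusted p = 0.0085). *Ccr2*, the receptor of inflammatory monocytes, had 82.2, 52.0 and 22.8 against 65.5, 131 and 49.5, so its groups overlapped.

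*Ccl2* is covered on the other strand by an unnamed gene (GSMG0065744), whose mean value went from 6.34 to 498, or up by 6.64 on the log2 scale. That mean was 2.21% of the *Ccl2* mean in the mutant-labelled libraries. The library kit keeps the strand, but whether the counting used it was not stated, so the 2 overlapping genes remain uncertain to that extent. The same holds for *Cxcl5*, 85.9% of which is covered on the other strand by an unnamed gene (GSMG0068242). That gene had no read in the control-labelled libraries. Its mutant-labelled mean of 15.7 was 13.9% of the *Cxcl5* mean. *Cxcl10* and *Cxcl11* lie inside *Art3* on the other strand, which fell by 1.93 on the log2 scale while they rose. *Cxcr6* lies inside *Fyco1* on the other strand as well, which had mean values of 1439 and 1695 and was not past the threshold.

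The CXCR2 ligands attract neutrophils. *Cxcl1* was the only one with a control mean of at least 10 and went from 35.5, 67.1 and 48.2 to 903, 1025 and 996 (log2 fold change 4.29 ± 0.27, adjusted p = 1.6e-05). *Cxcl2* went from 0, 9.45 and 2.53 to 246, 177 and 151, and *Cxcl5* from 4.44, 9.45 and 5.07 to 105, 133 and 101. Neither overlapped between the groups, at log2 fold changes of 5.82 ± 0.84 and 4.01 ± 0.50 (adjusted p = 0.0011 and 0.00052). The change of *Cxcl2* was 4.95 or 6.65 without control-labelled replicate 1 or 2. *Cxcl3* had 2 reads in all control-labelled libraries together and 160 in the mutant-labelled ones. Its ratio of size-factor scaled counts was 64.2 (95% exact interval 17.5 to 535, counting error only), and the mutant-labelled values of 53.1, 68.5 and 15.8 were all above the control-labelled ones. *Cxcl15*, a lung-expressed CXC chemokine, had no read in any library.

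The receptor *Cxcr2* was below the filter, at 0, 1.89 and 0 against 1.45, 11.6 and 10.9, and *Cxcr1* had no read. Neutrophil markers were few. Of 6, 4 were tested and 1 was higher, *Csf3r* at a log2 fold change of 3.28, beside 13.9% of all genes tested. The neutrophil sum was 29.3 to 174 in control-labelled and 152 to 554 in mutant-labelled libraries, which overlap, and *Ly6g* was at 0 in all control-labelled libraries.

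*Cxcl1*, *Cxcl2* and *Cxcl3* lie within 1 cluster on chromosome 5, and their promoters share the same kB match, shown here as a stretch of about 50 bases around it. *Ccl20* and *Cxcl14*, which lie elsewhere, are shown for comparison, with the ISRE match of *Cxcl14* in capitals. These stretches were chosen after the values had been seen.
*Cxcl1* (chr5:90891154-90891204, plus strand): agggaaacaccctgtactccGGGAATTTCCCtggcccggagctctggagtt
*Cxcl2* (chr5:90903782-90903832, plus strand): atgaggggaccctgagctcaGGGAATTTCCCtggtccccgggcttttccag
*Cxcl3* (chr5:90786008-90786058, plus strand): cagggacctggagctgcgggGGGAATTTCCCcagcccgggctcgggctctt
*Ccl20* (chr1:83116666-83116715, plus strand): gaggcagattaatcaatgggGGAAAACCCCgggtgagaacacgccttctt
*Cxcl14* (chr13:56296694-56296743, minus strand): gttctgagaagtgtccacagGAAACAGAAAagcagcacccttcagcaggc

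The capitals of *Cxcl1*, *Cxcl2* and *Cxcl3* are 2 overlapping kB matches, the first at -71, -97 and -73 from the respective transcription start. Over the promoter table, 45 of the 61 member symbols had at least 1 window of 300 bases (250 before and 50 after the start), 27 ligands and 18 receptors. The windows of *Ccl27b* and *Ccl21b* lie elsewhere than these genes in the deposited table. A kB match stood in 8 of 33 ligand windows (24.2%) and in 4 of 19 receptor windows (21.1%), against 8.46% of all 32851 windows. An ISRE match stood in 3 ligand windows (*Cxcl10*, *Cxcl14* and *Ccl19*) and in 0 receptor windows, against 3.44% of all windows. Among the 17 windows of ligands that were higher, 7 held a kB match and 2 held an ISRE match. Of those with a kB match, *Cxcl2*, *Cxcl3*, *Ccl1* and *Ccl20* were tested only through the mutant-labelled libraries. The 16 windows of the other ligands, from 10 genes, held a kB match in 1 and an ISRE match in 1. No ISRE match overlapped a kB match in these windows, and the neighbouring genes of a cluster share descent, so their windows are not independent.

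The eotaxins attract eosinophils through CCR3. *Ccl24* (GSMG0031203, chromosome 5, 135569935 to 135573049), or eotaxin-2, was the only ligand to fall past the threshold, from 184.3, 215 and 113 in control-labelled libraries to 0, 5.79 and 1.98 in mutant-labelled libraries. The mutant-labelled libraries held 8 reads of it in all, and the log2 fold change of -5.93 ± 0.77 had an adjusted p of 0.00063. It was -5.21 or -6.59 without mutant-labelled replicate 1 or 2. *Ccl24* reached the filter only in the control-labelled libraries. *Ccl11* (GSMG0005641), or eotaxin-1, had 8745, 8377 and 7978 against 14312, 15843 and 17240. These values did not overlap, but its log2 fold change of 0.91 ± 0.10 (adjusted p = 0.00021) stayed under 2-fold, and it was 1.08 when libraries were scaled to the same total. *Ccl26* had no read. Their receptor *Ccr3*, carried by eosinophils, basophils and mast cells, had no read in the control-labelled libraries and values of 10.2, 30.9 and 13.8 in mutant-labelled libraries, at least 5.51-fold higher than the floor of 3 reads per library. *Ccr3* reached the filter only in the mutant-labelled libraries, so its mean had to be higher there.

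*Ccl24* is known as a product of alternatively activated macrophages, as is the mannose receptor *Mrc1*, which also fell (log2 fold change -2.27). Of the 13 macrophage markers, 4 were lower (*Mrc1*, *Cd14*, *Lyz2* and *Csf1r*) and 2 were higher (*Fcgr1* at 1.58 and *Aif1* at 1.04), beside 10.4% lower and 13.9% higher among all genes tested. The macrophage sum overlapped, at 21407 to 27492 in control-labelled and 22743 to 26568 in mutant-labelled libraries. The part of macrophages, or of their state, in the *Ccl24* value was not tested. Of 6 mast cell markers, 2 were higher, 1 of these tested only through the mutant-labelled libraries, and 1 was lower, with overlapping sums of 3341 to 11465 and 3919 to 4813.

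*Cxcl12*, the constitutive ligand of CXCR4 that guides migrating progenitors in development, was the only ligand with a Cxcl symbol among those tested whose values were all lower in the mutant-labelled libraries. Its values of 6505, 5240 and 5483 in control-labelled libraries were all above the 2899, 4197 and 2390 of the mutant-labelled libraries, at -0.89 ± 0.19 on the log2 scale (adjusted p = 0.0083) that did not reach 2-fold. Without mutant-labelled replicate 2 it was -1.12 and past the threshold. *Cxcr4* had 733, 502 and 639 against 383, 434 and 366. These values did not overlap either, at -0.65 ± 0.18 (adjusted p = 0.026). *Ackr3*, the scavenger of CXCL12, had 3309, 2803 and 2060 against 3777, 4830 and 4865, higher in all mutant-labelled libraries but under 2-fold (0.74 ± 0.18, adjusted p = 0.014).

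*Cxcl14*, a CXC chemokine made by epithelium and fibroblasts whose receptor is debated, had small spreads within both groups. It went from 2063, 1689 and 1927 to 21049, 20987 and 26458, with no overlap and a log2 fold change of 3.59 ± 0.12 (adjusted p = 1.8e-06). Of 5 fibroblast markers, 2 were lower, beside 10.4% of all genes tested, *Col1a1* at -1.10 and *Col1a2* at -1.01 on the log2 scale. The fibroblast sum was lower in all mutant-labelled libraries, at a ratio of means of 0.499, but it consists mostly of *Col1a1* and *Col1a2* and so largely repeats them. *Pdgfra*, *Dcn* and *Lum* overlapped and did not pass. The part of these cells in the *Cxcl14* value was not tested.

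*Cx3cl1* (fractalkine) and *Cxcl16* are membrane-anchored chemokines that are shed by metalloproteases. *Cx3cl1* (GSMG0037651, chromosome 8, 94772180 to 94782427) went from 247, 181 and 314 to 1029, 590 and 668 (log2 fold change 1.61 ± 0.27, adjusted p = 0.0024). *Cxcl16* went from 177, 283 and 183.7 to 528, 645 and 738 (1.59 ± 0.24, adjusted p = 0.0013). Neither overlapped between the groups. The sheddase gene *Adam10* fell by 1.46 on the log2 scale, and *Adam17* was at -0.90, under 2-fold.

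The receptors of these 2 ligands moved in opposite directions. *Cx3cr1* (GSMG0041447, chromosome 9, 120048683 to 120068297), a receptor of resident macrophages and monocytes, had 1424, 1343 and 1405 in control-labelled and 468, 522 and 244 in mutant-labelled libraries. The control-labelled values lay close together and far above the others, and the log2 fold change was -1.83 ± 0.26 (adjusted p = 0.0011). *Cxcr6*, found on effector T and NK cells, went from 4.44, 0 and 2.53 to 10.2, 27.0 and 19.8 (2.80 ± 0.92, adjusted p = 0.044), and reached the filter only in the mutant-labelled libraries. Without control-labelled replicate 2 it was 2.09.

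**Figure D2:**
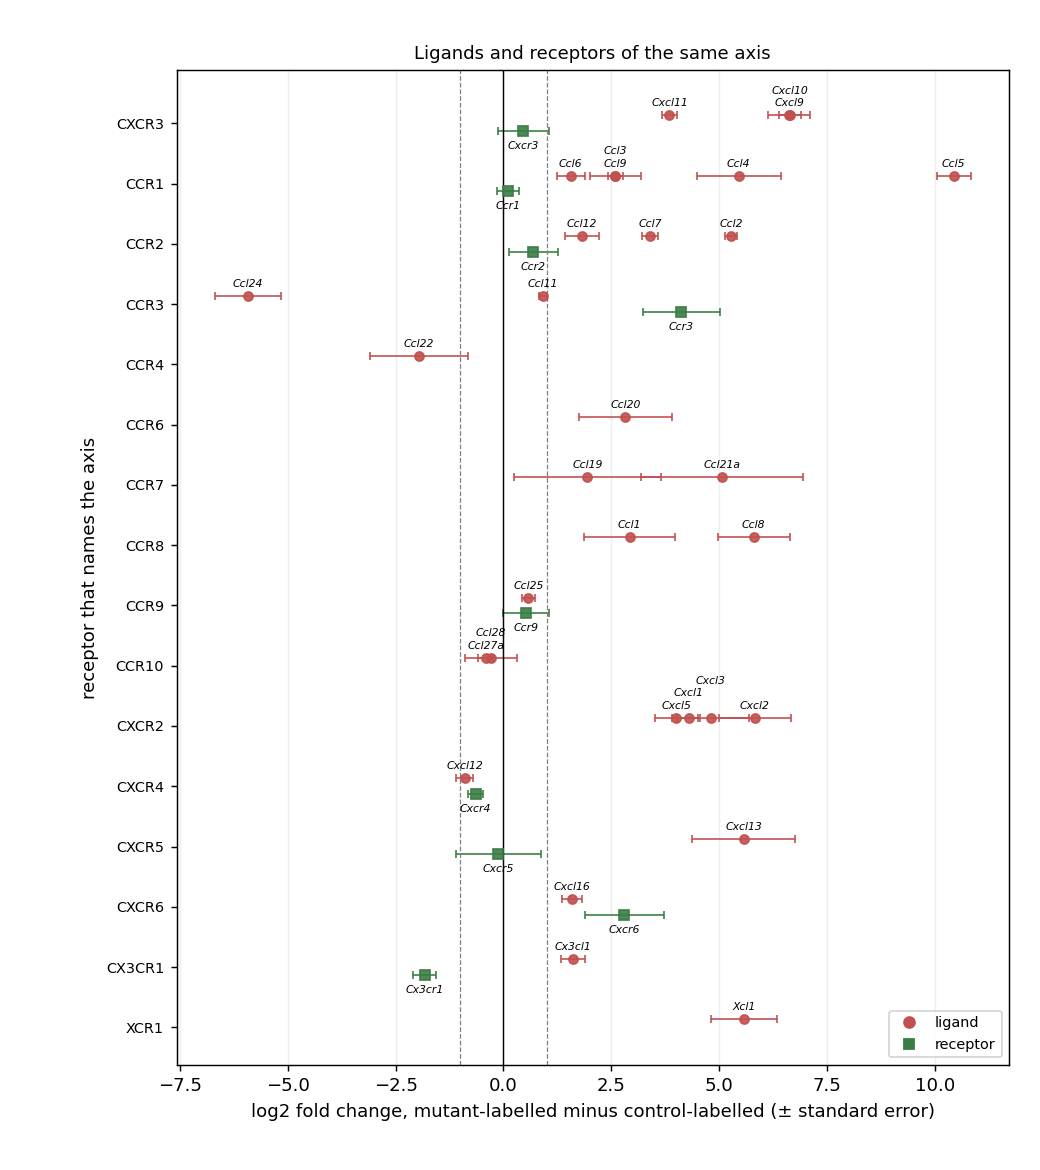
Log2 fold change (horizontal axis, mutant-labelled minus control-labelled, bars are standard errors) of the tested ligands (red circles) and receptors (green squares), in one row for each receptor that names an axis. Dashed lines mark 2-fold. Ligands of CXCR3, CCR2 and CXCR2 lie to the right of 2-fold while *Cxcr3* and *Ccr2* lie between the lines, and *Cx3cl1* and *Cx3cr1* lie on opposite sides.

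Among the ligands of lymphoid tissue, *Cxcl13*, the B cell attractant that binds CXCR5, went from 8.88, 0 and 0 to 369, 28.9 and 94.95 (log2 fold change 5.57 ± 1.19, adjusted p = 0.0076). All mutant-labelled values were higher, with mutant-labelled replicate 1 far above the other two. The change was 4.64 without that library, 6.46 without mutant-labelled replicate 2 and 6.67 without control-labelled replicate 1. *Cxcr5* had 2.22, 22.7 and 7.60 against 4.36, 18.3 and 3.96 and did not pass. Of 4 tested B cell markers, 0 passed the threshold and 0 had an unadjusted p under 0.05 with limma, and edgeR and DESeq2 also gave 0. The B cell sums were 113 to 151 in control-labelled and 81.0 to 110 in mutant-labelled libraries.

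*Ccl21a*, which guides dendritic cells and naive T cells through CCR7, had 505, 0 and 34.2 against 384, 2344 and 744. The groups overlapped through control-labelled replicate 1, and the log2 fold change of 5.07 ± 1.89 was past the unadjusted threshold with an adjusted p of 0.068. It was 2.67 with edgeR and 2.68 with DESeq2, neither past the threshold. It was 7.21 without control-labelled replicate 1, 2.71 without control-labelled replicate 2, and 5.66 without mutant-labelled replicate 1. It was no longer past the threshold without mutant-labelled replicate 2 or 3, at 4.36 or 5.18. *Ccl21a* has near-identical copies, including the entry of *Ccl21b* and *Ccl21c*, which had no read, so its reads are uncertain. *Ccl19*, the other CCR7 ligand, had reads in mutant-labelled replicate 1 alone, at a value of 56.0, and did not pass. *Ccr7* was below the filter, at 4.44, 0 and 0 against 14.5, 1.93 and 7.91.

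*Ccl20*, the CCR6 ligand, went from 0, 0 and 7.60 to 16.0, 19.3 and 7.91, and its highest control-labelled value lay just under its lowest mutant-labelled one (log2 fold change 2.83 ± 1.08, adjusted p = 0.075). The change was 3.86 without control-labelled replicate 3, and no longer past the threshold without control-labelled replicate 1 or 2 (2.31 each) or mutant-labelled replicate 1 or 2 (2.71 and 2.59). *Ccr6* had reads in mutant-labelled replicate 1 only.

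The remaining inducible ligands were nearly undetected in the control-labelled libraries. *Ccl8*, a CCR8 ligand in the mouse, had 1 read in all control-labelled libraries and 294 in the mutant-labelled ones, with values of 82.9, 30.9 and 146 in the latter. The ratio was 236 (95% exact interval 42.0 to 9356). *Ccl1*, also a CCR8 ligand, had 2 reads against 43, with values of 3.64, 25.1 and 11.9 in the mutant-labelled libraries and a ratio of 17.3 (4.50 to 147, adjusted p of the fit 0.062). *Ccl1* was no longer past the threshold without control-labelled replicate 1 or 2 or mutant-labelled replicate 3. It fell below the filter without mutant-labelled replicate 2, which held 26 of the 43 reads. *Ccr8* was at 0 in the control-labelled libraries and at 5.82, 14.5 and 0 in the others. *Xcl1*, a lymphocyte product also called lymphotactin, had no control-labelled read and values of 26.2, 69.5 and 55.4, at least 15.2-fold higher than the floor of 3 reads per library. Its receptor *Xcr1*, of cross-presenting dendritic cells, was below the filter, with 18 reads in control-labelled libraries, all from replicate 1, against 8 in mutant-labelled libraries. *Xcl1* is made by NK and T cells, and the marker sums of these cells given above were also higher. Their part in the *Xcl1* value was not tested.

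The other ligands did not pass the threshold. *Ccl25*, the CCR9 ligand of thymus and gut, had 416, 387 and 468 against 633, 687 and 576, which did not overlap (log2 fold change 0.58 ± 0.16, adjusted p = 0.021). *Ccl27a*, a CCR10 ligand of skin, had 580, 455 and 545 against 412, 351 and 421, lower in all mutant-labelled libraries (-0.41 ± 0.17, adjusted p = 0.094). *Ccl28* (-0.29 ± 0.60), *Ccl27b* (-0.59 ± 0.58) and the CCR4 ligand *Ccl22* (-1.95 ± 1.13) overlapped and did not pass. The value of *Ccl22* was -2.66 without mutant-labelled replicate 1 and -0.68 without mutant-labelled replicate 2. *Ccl27a* and *Ccl27b* are near-identical copies and their split is uncertain. *Ccl17* and *Cxcl17* were below the filter and had reads in mutant-labelled replicates 2 and 3 alone, up to values of 7.72 and 7.91. With no read in a library, a floor of 3 reads allows a value of up to 2.18 to 3.80.

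**Figure D3:**
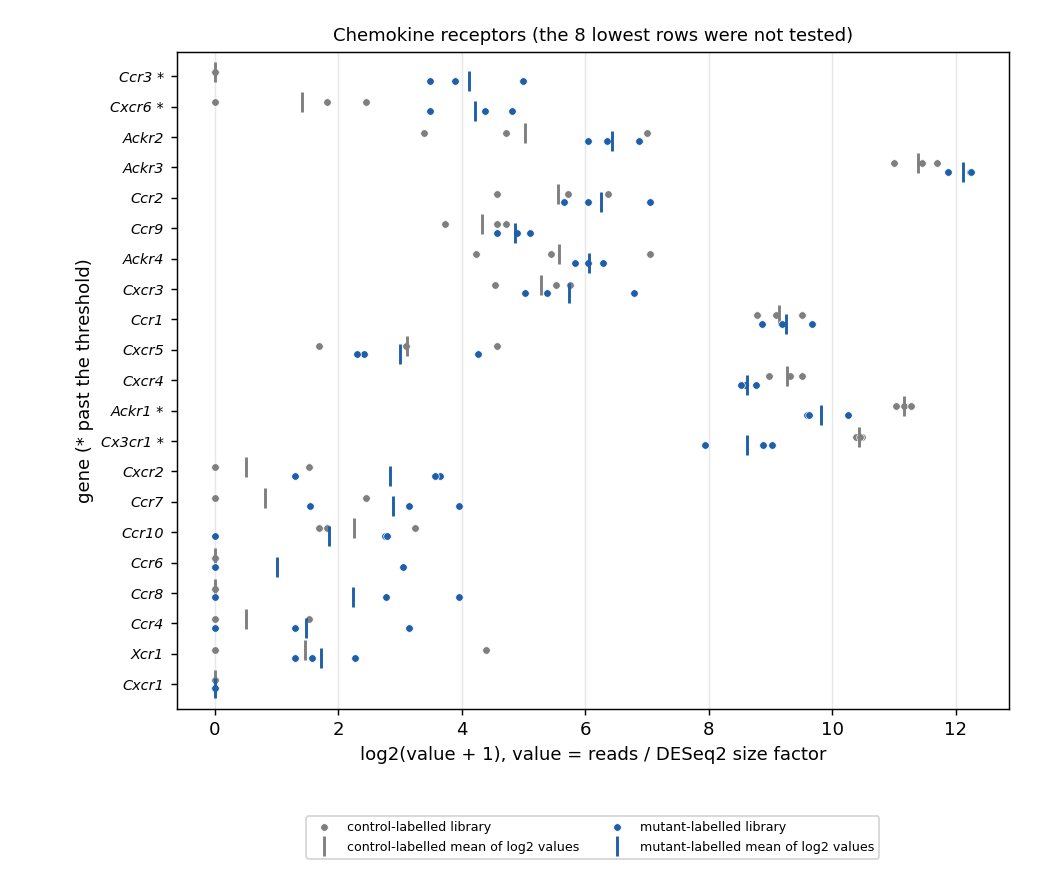
Chemokine receptors, one row per gene for 21 of them. The horizontal axis is log2(value + 1), each point is a library (grey for control-labelled, blue for mutant-labelled), vertical ticks are means of the 3 log2 values, and an asterisk marks receptors past the threshold. *Ccr3* and *Cxcr6* sit further right and *Ackr1* and *Cx3cr1* further left in the mutant-labelled libraries, while the points of *Ccr1*, *Ccr2* and *Cxcr3* intermingle.

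Of the atypical receptors, *Ackr1* (GSMG0002483, chromosome 1, 173331886 to 173333674), the Duffy antigen of venular endothelium and, in many species, red cells, had 2091, 2305 and 2485 in control-labelled and 1219, 769 and 790 in mutant-labelled libraries. It was lower in all mutant-labelled libraries, at a log2 fold change of -1.34 ± 0.19 (adjusted p = 0.00088). Of 6 erythroid markers, 5 were lower, beside 10.4% of all genes tested, and their sum was 54935 to 76999 in control-labelled and 5133 to 15724 in mutant-labelled libraries. Endothelial sums overlapped, at 12793 to 20608 and 17006 to 26339, and 0 of 6 endothelial markers passed the threshold with limma, edgeR or DESeq2, while 2 had an unadjusted limma p under 0.05, among them *Kdr* at an adjusted p of 0.033 and under 2-fold. The part of either cell type in the *Ackr1* value was not tested.

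*Ackr2*, a scavenger of inflammatory CC chemokines, had 127, 9.45 and 25.3 against 65.5, 116 and 81.1 (log2 fold change 1.39 ± 0.82, adjusted p = 0.23). Without control-labelled replicate 1, the only high one of its group, it was 2.37 and past the threshold. Without control-labelled replicate 2 it was 0.57, and edgeR and DESeq2 gave 0.69 and 0.70, none of them past the threshold. *Ackr4* had 132, 42.5 and 17.7 against 65.5, 56.0 and 77.1 and did not pass. *Ccr9* had 12.2, 22.7 and 25.3 against 33.5, 28.9 and 22.7 and did not pass either. *Ccr4* and *Ccr10* were below the filter, with no value above 8.50.

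Per library, the ligand values summed to 21533 ± 1148 (SD, n = 3) with the control label and to 218999 ± 25328 with the mutant label, a ratio of 10.2. Every mutant-labelled sum was higher, and an exact two-sided permutation test gave p = 0.1, the smallest that 3 against 3 libraries allow. Without *Cxcl10*, the ligand with the largest sum, the ratio was 5.91. The receptor sum was 8043 ± 787 and 8095 ± 738, a log2 difference of 0.01 (exact permutation p = 0.9). With libraries scaled to the same total, the log2 difference was 3.50 for the ligands and 0.17 for the receptors. These sums weigh genes by their reads and are not corrected for length.

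The make-up of the ligand reads also differed. Ligand reads made up 0.0315% to 0.0369% of reads on genes in control-labelled and 0.335% to 0.425% in mutant-labelled libraries. *Ccl11* and *Cxcl12* together gave most ligand reads of the control-labelled libraries, with 38.9% ± 0.299 and 26.6% ± 2.24 (SD, n = 3). In the mutant-labelled libraries their shares were 7.27% ± 0.991 and 1.49% ± 0.629. *Cxcl10* went from 4.75% ± 1.72 to 44.5% ± 2.47, *Ccl5* from 0.0855% ± 0.0624 to 10.7% ± 0.507, and *Ccl2* from 2.69% ± 0.323 to 10.3% ± 0.732. The share of *Cxcl14* was 8.80% ± 0.867 and 10.4% ± 0.986. These shares are fractions of a total that itself differed, so a lower share of *Ccl11* stands beside a higher value of the gene.

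**Figure D4:**
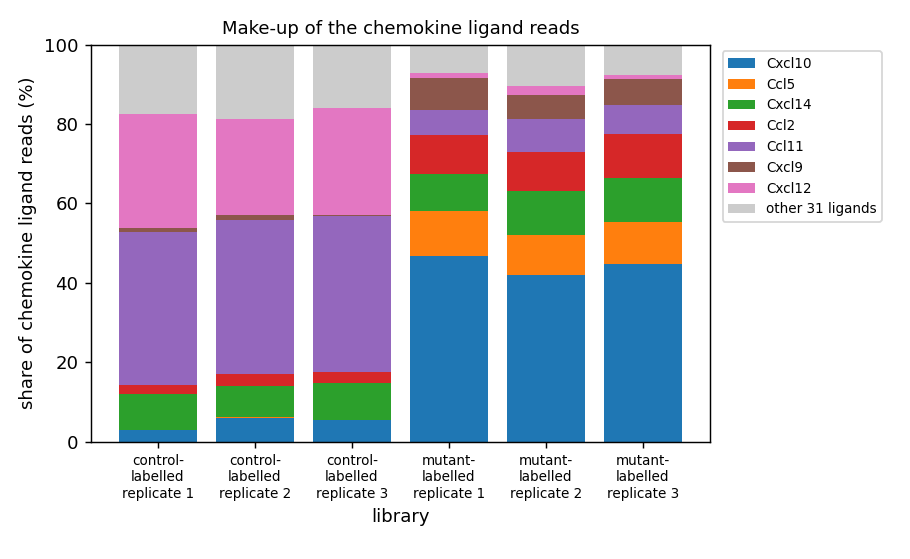
Share of all chemokine ligand reads (vertical axis, percent) held by 7 ligands and by the other 31 together, one bar per library. *Ccl11* and *Cxcl12* fill most of the 3 control-labelled bars, and *Cxcl10* fills 41.9% to 46.8% of the 3 mutant-labelled bars.

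Many members are neighbours in the genome. With gaps of at most 200 kb, 39 of the 60 members fell into 11 clusters of at least a pair. Of the 31 tested among them, 22 were higher and 2 were lower, beside 13.9% and 10.4% of all genes tested. Of these 22, 9 were tested only through the mutant-labelled libraries. Among the 21 with a control mean of at least 10, 13 were higher, against 10.1% of all genes with such a mean. On chromosome 11, the cluster of *Ccl2*, *Ccl7*, *Ccl11*, *Ccl12*, *Ccl8* and *Ccl1* (chr11:82035575-82305690) had 5 of 6 members higher, *Ccl11* being the exception, with *Ccl8* and *Ccl1* tested only through the mutant-labelled libraries. The cluster of *Ccl5*, *Ccl9*, *Ccl6*, *Ccl3* and *Ccl4* (chr11:83525781-83664682) had 5 of 5 higher, 2 of them (*Ccl3* and *Ccl4*) tested only that way. On chromosome 5, 4 of 4 tested members of the *Cxcl5*, *Cxcl3*, *Cxcl15*, *Cxcl1* and *Cxcl2* cluster (chr5:90759298-90905938) and 3 of 3 of the *Cxcl9*, *Cxcl10* and *Cxcl11* cluster were higher. In the former, *Cxcl5*, *Cxcl3* and *Cxcl2* were tested only through the mutant-labelled libraries, which leaves *Cxcl1*. Other clusters went otherwise. The only tested member fell in the pair of *Ccl26* and *Ccl24* and in the pair of *Cx3cr1* and *Ccr8*, *Ccl27a* beside *Ccl21b* and *Ccl21c* did not pass, and 3 of 6 tested receptors of the chromosome 9 cluster were higher, with *Ccr3* and *Cxcr6* tested only through the mutant-labelled libraries. Of the neighbours *Ccl22*, *Cx3cl1* and *Ccl17*, 1 of 2 tested was higher, as was 1 of 2 for *Ccl19* and *Ccl21a*, and neither *Cxcr2* nor *Cxcr1* was tested.

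The members of a cluster did not rise by like amounts. In the second chromosome 11 cluster, log2 fold changes ran from 1.55 for *Ccl6* to 10.44 for *Ccl5*. Within the same spans, 12 other genes were tested, of which 4 were higher and 2 were lower, beside 24.2% of all genes tested past the threshold in either direction. The 4 higher ones carry no gene symbol. Of these, the genes opposite *Ccl2* and *Cxcl5* had control-labelled means of 6.34 and 0. They reached the filter only in the mutant-labelled libraries, so their means had to be higher there. Those lower were *Art3* and *Pf4*. *Pf4* is itself a CXC chemokine under another symbol, platelet factor 4, and lies between the neutrophil attractants. It went from 1451, 1059 and 1385 to 374, 350 and 404, at -1.77 ± 0.16 on the log2 scale (adjusted p = 1.0e-04).

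Other chemokine family genes with irregular symbols were read in the same fit. *Ccrl2*, a chemerin-binding relative of the atypical receptors, went from 44.4, 45.4 and 17.7 to 1834, 1139 and 1906 (log2 fold change 5.54 ± 0.39), with no overlap. *Ppbp* did not pass and *Ccr1l1* was below the filter.

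Genes of signaling downstream of chemokine receptors were mixed. Of 32 found in the table, 7 were higher, 4 were lower and 21 did not pass, beside 13.9% higher and 10.4% lower among all genes tested. Their median log2 fold change was -0.08. Among the higher were regulators that switch off G proteins, *Rgs16* (481 ± 28.7 to 11576 ± 1775, SD, n = 3) and *Rgs1* (7.38 ± 2.85 to 390 ± 286), the latter tested only through the mutant-labelled libraries. Others were the kinase gene *Fgr* and the PI3K-gamma adaptor gene *Pik3r5*, at log2 fold changes of 2.28 and 2.24. Those that fell were *Elmo1* (-2.02), *Gnai1* (-2.01), *Gng2* (-1.98) and *Plcb2* (-1.10). *Elmo1* acts with *Dock2* in Rac activation, and *Gnai1* and *Gng2* encode G protein subunits.

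Of 14 genes that process or present chemokines, 4 were higher, 1 was lower and 9 did not pass, with a median of 0.02, beside 13.9% higher and 10.4% lower among all genes tested. The metalloprotease genes *Mmp12* and *Mmp9* had log2 fold changes of 2.89 and 2.56, where *Mmp12* was tested only through the mutant-labelled libraries. The heparan sulfate proteoglycan gene *Sdc4* had a log2 fold change of 1.505, and *Dpp4*, whose product trims the N terminus of CXCR3 ligands and CXCL12, of 1.42. *Sdc4* went from 7422, 8491 and 9023 to 27451, 19806 and 23910, with no overlap.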

How the data were processed

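The authors deposited their values as 1 table, a signal for each gene in each library. Per the study's methods, reads were aligned to mm10 with STAR 2.4.0, counted on the constitutive regions of FAST DB genes and divided by DESeq2 size factors. In all libraries 100% of the values came out as whole reads (tolerance 0.01 read), without molecular identifiers, so intervals and floors cover counting error only. The table holds no other numeric column. The mean of the log2(value + 1) values was compared between genotypes with limma 3.58.1 (R 4.3.3) over 25802 genes, without covariates, with p-values adjusted over all of them by the Benjamini-Hochberg method. edgeR 4.0.16 and DESeq2 1.42.0 on the whole reads, other scalings, pseudocounts and filters, and each library left out were tried as alternatives. Fits were tested on simulated data. Members are named, with those past the threshold described by library, and up to 4 genes of each other list by size of change. The members, gene lists and tests were chosen with earlier results of these data known. Replicates are separate animals. Promoter sequences and motifs are from RefSeq (GRCm38.p6). Of the downstream list, *Grk2* and *Grk3* were not found under these symbols. The values of 1 member and of some other genes are not reported here, and that member is counted but not plotted.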

Additional observations from a re-analysis of the deposited data

How the results depend on the processing

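Of the 47 members tested, 29 kept their direction and their side of the threshold under all 18 alternatives (12 other settings and 6 fits without 1 library). A further 7, among them *Ccr3* and *Cxcr6*, kept them wherever they were tested but fell below the filter under at least 1 alternative, and 11 changed under some. Leaving out 1 library gave 23 to 25 ligands and 5 to 6 receptors past the threshold. *Ccl20*, *Ccl21a* and *Ccl1* lost the threshold under several settings, including an adjusted p of 0.05. With a minimum mean of 50, 3 receptors passed. With a control mean of at least 10, chosen after seeing the data, 15 ligands and 3 receptors passed. *Cxcr5* turned from -0.12 to 0.025 with libraries scaled to the same total. Without 1 library, the log2 fold change ran from -0.83 to 0.23 for *Cxcr5*, -0.071 to 0.81 for *Cxcr3*, -0.10 to 0.30 for *Ccr1*, -0.90 to 0.24 for *Ccl28* and -0.19 to 1.22 for *Ackr4*, none of them past the threshold. The cause was not tested. Scaling to the same total moved the median of all genes from 0.03 to 0.19 and the share of higher calls from 57.3% to 66.2%. edgeR called 5805 and DESeq2 6026 genes, against 6251 with limma.

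The replicate numbers did not pair the libraries (correlations of same-numbered libraries -0.062, -0.055 and 0.009). With the replicate block, 6149 genes, 24 ligands and 5 receptors passed, and *Ccl20* no longer did.

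Where libraries of a group hold few or no reads, the fitted fold depends on the pseudocount. At pseudocounts of 0.1 and 10 the log2 fold change was 7.11 and 3.88 for *Cxcl2*, 6.72 and 3.62 for *Ccl4*, 7.81 and 3.23 for *Cxcl13*, 4.06 and 1.21 for *Cxcr6*, 4.21 and 2.92 for *Cxcl5*, 2.74 and 1.76 for *Ccl3*, 7.16 and 2.25 for *Cxcl3*, 8.24 and 3.01 for *Ccl8*, 5.13 and 1.02 for *Ccl1*, -3.06 and -0.89 for *Ccl22* and -7.27 and -3.82 for *Ccl24*, all in the direction of the value at 1. *Ccl20* (4.996 and 0.98) lost the threshold at 10 and *Ccl21a* (6.19 and 3.86) at 0.1.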
